A study of Mus musculus with 24 samples.

Results

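The genes described here are those of tumour necrosis factor signalling: the cytokine gene Tnf, the sheddase gene Adam17, the receptor genes Tnfrsf1a and Tnfrsf1b, the adaptor genes Traf1, Traf2 and Ripk1, and the survival genes Birc2, Birc3 and Cflar. They were chosen by symbol, and all 10 were found among the 54838 genes of the deposited count table and passed the filter on low counts that left 13116 genes for testing. RNA came from SIM-A9, an immortalised mouse microglial cell line. All cells, controls included, were moved to serum-free medium 2 h before exposure, and RNA was taken after 2 h of exposure. The groups, of 3 libraries each, were control, LPS (bacterial lipopolysaccharide, a ligand of Toll-like receptor signalling), the carbon nanotube groups (GT)6 SWCNT and COOH SWCNT, the dye groups Fura-2, DiBASC2 and Di-2-ANEPEQ, and AAV. A sample volume of 30 µL and a medium volume of 270 µL are listed for every group, control included. SWCNT are single-walled carbon nanotubes. (GT)6 names a short DNA strand used to wrap nanotubes, and COOH a carboxylated nanotube surface. Fura-2 is a calcium indicator, DiBASC2 (also spelled DiSBAC2 in the table) and Di-2-ANEPEQ are dyes used to read membrane voltage, and AAV is adeno-associated virus. Doses are not given in the sources used here, and a single cell line in culture stands for microglia.

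TNF is made as a membrane protein and is cut from the cell surface by the protease ADAM17. It binds TNFR1 (Tnfrsf1a), found on most cells, and TNFR2 (Tnfrsf1b), found mainly on immune and endothelial cells. At TNFR1 the adaptor TRAF2, the kinase RIPK1 and the ubiquitin ligases cIAP1 (Birc2) and cIAP2 (Birc3) build a ubiquitin scaffold that activates NF-kB. NF-kB target genes, among them Birc3, Cflar and Traf1, hold back cell death, and the protein of Cflar, c-FLIP, blocks caspase-8. Microglia are a main source of TNF in the brain.

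The sequences shown are the 250 bases before the transcription start of Tnf, Traf1, Birc3 and Cflar, the members called higher in LPS and in both nanotube groups and lower in DiBASC2. They are from RefSeq on build GRCm38.p6, are written 5′ to 3′ on the strand of the gene, and end at the base before the start. Capitals mark matches on either strand to a loose NF-kB motif, GGGNNNNNCC, or to the TATA box TATAAA. The windows are chr17:35202008-35202257 on the minus strand for Tnf, chr2:34961773-34962022 on the minus strand for Traf1, chr9:7873171-7873420 on the minus strand for Birc3 and chr1:58711241-58711490 on the plus strand for Cflar.
Tnf: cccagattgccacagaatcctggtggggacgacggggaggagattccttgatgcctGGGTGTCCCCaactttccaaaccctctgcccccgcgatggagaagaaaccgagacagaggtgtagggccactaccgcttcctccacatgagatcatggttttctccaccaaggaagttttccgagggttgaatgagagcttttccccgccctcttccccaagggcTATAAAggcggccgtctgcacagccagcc
Traf1: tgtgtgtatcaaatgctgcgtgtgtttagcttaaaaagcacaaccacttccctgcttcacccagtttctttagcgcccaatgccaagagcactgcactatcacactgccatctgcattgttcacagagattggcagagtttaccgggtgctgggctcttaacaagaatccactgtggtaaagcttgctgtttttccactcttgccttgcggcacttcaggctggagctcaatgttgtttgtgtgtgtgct
Birc3: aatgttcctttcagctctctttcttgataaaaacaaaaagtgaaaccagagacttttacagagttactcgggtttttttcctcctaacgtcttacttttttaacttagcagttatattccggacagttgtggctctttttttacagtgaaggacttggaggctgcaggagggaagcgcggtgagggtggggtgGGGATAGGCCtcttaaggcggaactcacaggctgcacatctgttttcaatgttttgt
Cflar: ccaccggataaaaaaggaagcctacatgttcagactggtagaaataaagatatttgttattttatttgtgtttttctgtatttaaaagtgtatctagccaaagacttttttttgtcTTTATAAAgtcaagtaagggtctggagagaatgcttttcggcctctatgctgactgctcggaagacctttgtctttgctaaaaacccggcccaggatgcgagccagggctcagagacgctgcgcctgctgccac
The Tnf window met the loose NF-kB pattern on both strands at 1 place, which began 194 bases before the start, and a TATA box 29 bases before it. Birc3 had an NF-kB match at 57 bases, Cflar had TATA matches on both strands that overlapped, and Traf1 had no match in this window. All 10 members were matched to RefSeq, with 12 windows between them. The loose motif was present in 7 of the 10 members and in 48.7% of 27025 genes, the TATA box in 2 members and in 14.3% of genes. The AP-1 motif TGANTCA (7.82% of genes) and the strict NF-kB consensus (4.46% of genes) were found in 0 of the members' windows. A match describes letters only.

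Total counts per library ran from 17364272 to 29259221. Levels are given in CPM, read counts scaled to the size of the library. All 13 microglial markers checked were above 1 CPM in every library, with sums between 2389.5 and 2647 CPM. In control Cd68 (817 CPM) and Csf1r (507 CPM) were the highest of these markers and P2ry12 (2.35 CPM) the lowest. Summed astrocyte markers reached at most 0.435 CPM and summed neuron markers 1.03 CPM, and Syt1 of neurons, Mog of oligodendrocytes and Nkg7 of NK cells had 0 counts in every library. Summed oligodendrocyte markers reached 5.80 CPM. Of these, Mbp was at 3.04 to 5.43 CPM, a range like that of the microglial marker Tmem119 (2.75 to 5.32 CPM). The labels do not say whether the 3 libraries of a group came from separate cultures, so p-values measure the spread between these libraries, which may be technical. RNA was measured, not protein, and in these bulk libraries a larger share of responding cells and more RNA per cell cannot be told apart.

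LPS raised 8 of the 10 genes and lowered Tnfrsf1a, and only Ripk1 was not called. Calls are those of edgeR's quasi-likelihood test at an adjusted p (Benjamini-Hochberg) under 0.05. The background of all tested genes in LPS was 28.3% called (13.8% higher, 14.5% lower), against 9 of the 10 members. The median log2 fold change of the members was 1.14, against −0.01 for all genes. (GT)6 SWCNT raised 6 members and lowered Ripk1, where 20.4% of all genes were called (9.90% higher, 10.5% lower). COOH SWCNT raised 5 members and lowered Ripk1, where 20.0% were called (9.39% higher, 10.6% lower). DiBASC2 raised 0 members and lowered 4, Tnf, Traf1, Birc3 and Cflar, where 5.47% were called (1.82% higher, 3.64% lower). Each other treatment had 0 members called.

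**Figure D1:**
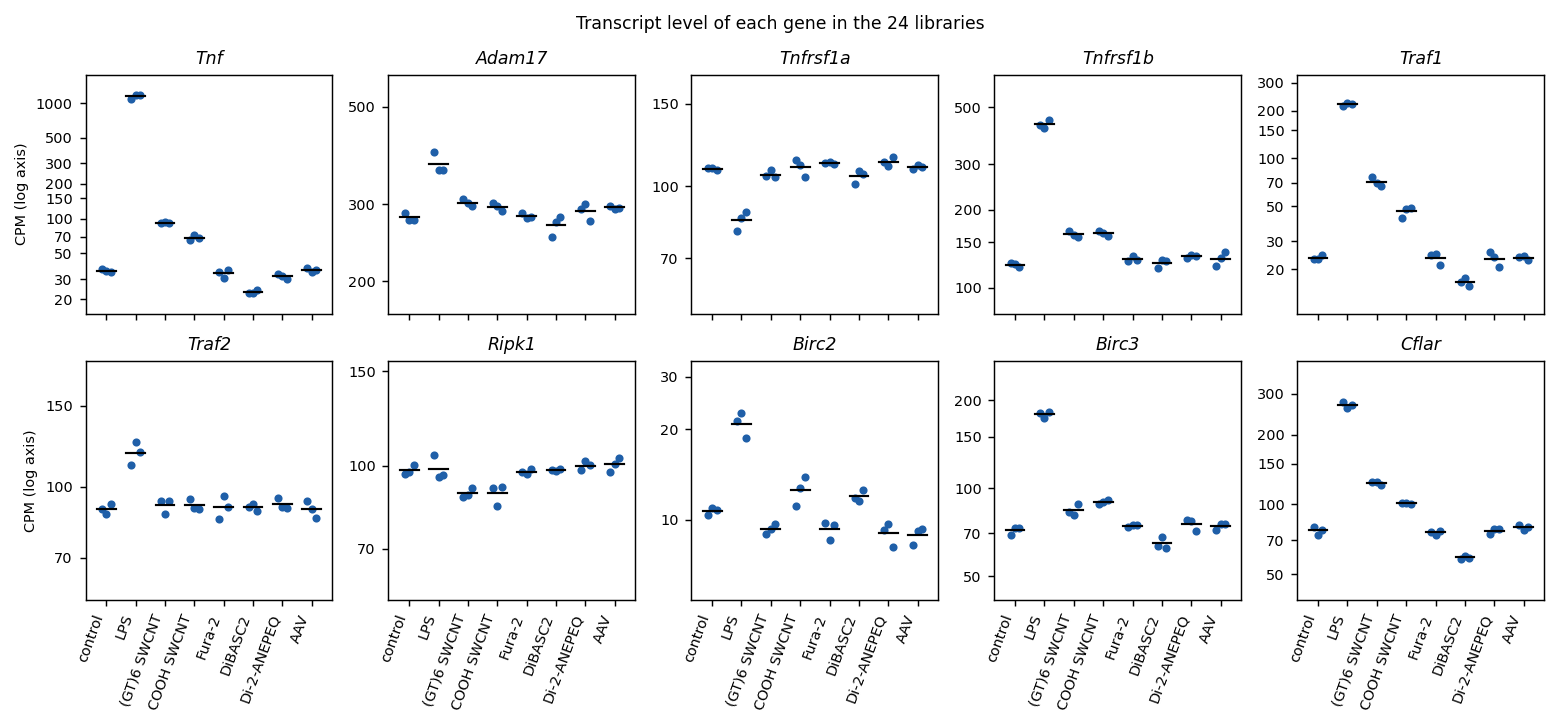
Transcript level of the 10 genes in each of the 24 libraries, in CPM on log axes whose range differs between panels; points are libraries and bars group means. Tnf, Traf1 and Cflar show the same order of groups, LPS, then (GT)6 SWCNT, then COOH SWCNT, with DiBASC2 lowest, whereas Traf2 and Ripk1 span a smaller range.

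Tnf (ENSMUSG00000024401.14, protein-coding, chromosome 17, 35199381 to 35202007, GENCODE M21 on GRCm38) encodes the cytokine itself. Control libraries of Tnf were at 37.0, 35.1 and 34.6 CPM. The LPS libraries were at 1082, 1174 and 1176 CPM. These groups lay far apart, by 32.2-fold (log2 fold change 5.01 ± 0.05, SE; adjusted p 1.04e-40), the 19th highest fold change of all tested genes. The (GT)6 SWCNT libraries were at 92.3, 92.7 and 91.8 CPM and the COOH SWCNT libraries at 65.0, 72.0 and 67.8 CPM. Both nanotube groups lay above every control library and did not overlap each other. The rise was 2.60-fold in (GT)6 SWCNT (log2 1.38 ± 0.05, adjusted p 5.25e-22) and 1.92-fold in COOH SWCNT (0.94 ± 0.05, adjusted p 3.61e-16). The DiBASC2 libraries, at 22.9, 22.6 and 24.004 CPM, were the lowest of all 24. Tnf fell there by 34.8% (log2 −0.62 ± 0.06, adjusted p 2.74e-09). Fura-2 (30.9 to 36.1 CPM), AAV (34.7 to 37.1 CPM) and control overlapped. Di-2-ANEPEQ, at 33.5, 32.2 and 30.2 CPM, lay just under control with log2 −0.15 (95% interval −0.26 to −0.04, adjusted p 0.145), which was not called.

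Adam17 (ENSMUSG00000052593.16, protein-coding, chromosome 12, 21323509 to 21373632) encodes the protease that releases TNF and both its receptors from the membrane. Control libraries were at 287, 277 and 276 CPM and LPS libraries at 395, 358 and 359 CPM. The groups did not overlap, and the rise in LPS was 1.33-fold (log2 0.41 ± 0.04, adjusted p 1.65e-10). In (GT)6 SWCNT, at 308, 302 and 296 CPM, Adam17 was called 1.08-fold higher (0.11 ± 0.04, adjusted p 0.0440). That call was lost with upper-quartile factors (adjusted p 0.0694), with no filter on low counts (0.0530), and without control replicate 2 (0.0782) or 3 (0.0799) or (GT)6 SWCNT replicate 1 (0.119) or 2 (0.0720). In COOH SWCNT the difference was 0.08 (95% interval −0.00 to 0.16), not called. In 311 bases Adam17 shares exon positions with Iah1 on the other strand, and strand use in counting is not given in the sources used here. Iah1 was at 26.8 CPM in LPS and 26.5 CPM in control (log2 0.02, not called), and fell in COOH SWCNT to 22.8 CPM (−0.22, adjusted p 0.0273).

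The receptor genes went opposite ways in LPS. Tnfrsf1a (ENSMUSG00000030341.17, protein-coding, chromosome 6, 125349362 to 125362484), for the death-domain receptor TNFR1, was at 109.6, 109 and 108 CPM in control and at 80.0, 85.5 and 87.8 CPM in LPS. No library overlapped, and Tnfrsf1a fell by 22.5% (log2 −0.37 ± 0.04, adjusted p 2.31e-09). In the 6 other treatments its log2 differences ran from −0.06 in DiBASC2 to 0.05 in Di-2-ANEPEQ, none called. Tnfrsf1b (ENSMUSG00000028599.10, protein-coding, chromosome 4, 145213463 to 145246870), for TNFR2, which has no death domain, was at 124, 124 and 121 CPM in control. It was at 428, 417 and 446 CPM in LPS, at 166, 161 and 157 CPM in (GT)6 SWCNT and at 166, 163 and 158 CPM in COOH SWCNT. The nanotube groups overlapped each other and lay between control and LPS. Tnfrsf1b rose 3.497-fold in LPS (log2 1.81 ± 0.04, adjusted p 6.44e-30), 1.31-fold in (GT)6 SWCNT (0.39 ± 0.04, adjusted p 1.41e-09) and 1.32-fold in COOH SWCNT (0.40 ± 0.04, adjusted p 1.89e-09). In DiBASC2, at 119, 128 and 126 CPM, the difference was 0.02 (95% interval −0.07 to 0.10).

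Traf1 changed more than the other adaptors, Traf2 and Ripk1, by point estimate in LPS and both nanotube groups. Traf1 (ENSMUSG00000026875.14, protein-coding, chromosome 2, 34941750 to 34961772), itself an NF-kB target whose protein pairs with TRAF2, was at 23.2, 23.3 and 24.5 CPM in control. It was at 214, 225 and 221 CPM in LPS, at 76.5, 70.1 and 66.9 CPM in (GT)6 SWCNT and at 42.2, 47.9 and 48.8 CPM in COOH SWCNT. The 4 groups were fully separated. Traf1 rose 9.28-fold in LPS (log2 3.21 ± 0.06, adjusted p 2.19e-31), 3.01-fold in (GT)6 SWCNT (1.59 ± 0.07, adjusted p 1.66e-20) and 1.95-fold in COOH SWCNT (0.97 ± 0.07, adjusted p 2.79e-13). In (GT)6 SWCNT it rose more than Tnf by point estimate, and it ranked 89th from the top of all tested genes. In DiBASC2, at 16.7, 17.7 and 15.8 CPM, all libraries lay below every other library, and Traf1 fell by 29.1% (log2 −0.50 ± 0.08, adjusted p 4.86e-05).

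Traf2 (ENSMUSG00000026942.13, protein-coding, chromosome 2, 25517982 to 25546940), the adaptor that brings the cIAP proteins to the receptor, was at 89.5, 87.3 and 91.5 CPM in control and at 112, 125 and 119 CPM in LPS. LPS lay above control without overlap, by 1.33-fold (log2 0.41 ± 0.05, adjusted p 3.17e-09). All other treatments overlapped control, with log2 differences from −0.00 in AAV to 0.04 in Di-2-ANEPEQ. Ripk1 (ENSMUSG00000021408.15, protein-coding, chromosome 13, 34002363 to 34037147), the kinase that serves survival or death according to its ubiquitin state, was at 96.3, 97.4 and 100.4 CPM in control. In LPS it was at 105, 95.4 and 96.2 CPM, and the groups overlapped (log2 0.01, 95% interval −0.07 to 0.09, adjusted p 0.893). The (GT)6 SWCNT libraries were at 87.4, 88.3 and 90.8 CPM and the COOH SWCNT libraries at 90.9, 84.3 and 91.2 CPM, all below control. Ripk1 fell by 9.42% in (GT)6 SWCNT (log2 −0.14 ± 0.04, adjusted p 0.0106) and fell by 9.34% in COOH SWCNT (−0.14 ± 0.04, adjusted p 0.0118). The first call was lost without control replicate 2 (adjusted p 0.050003) or 3 (0.119) or (GT)6 SWCNT replicate 1 (0.0816) or 2 (0.0534), the second without control replicate 3 (0.0963) or COOH SWCNT replicate 2 (0.0902). Ripk1 shares 241 bases of exon with Serpinb6a on the other strand, which was not called in LPS or in either nanotube group. It also shares 511 bases with the processed pseudogene Gm17084 on the same strand, which had 0 counts in every library.

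The inhibitor of apoptosis genes Birc2 and Birc3 lie 11634 bases apart on chromosome 9, on the same strand. Birc3 (ENSMUSG00000032000.17, protein-coding, 7848699 to 7873186), for cIAP2, was at 69.2, 72.9 and 73.3 CPM in control and at 181, 174 and 182 CPM in LPS. It was at 83.0, 81.1 and 88.1 CPM in (GT)6 SWCNT and at 88.4, 89.7 and 91.3 CPM in COOH SWCNT. Each of these groups lay above control, LPS furthest. Birc3 rose 2.49-fold in LPS (log2 1.32 ± 0.04, adjusted p 8.02e-25), 1.17-fold in (GT)6 SWCNT (0.22 ± 0.04, adjusted p 0.000206) and 1.25-fold in COOH SWCNT (0.32 ± 0.04, adjusted p 7.94e-07). In DiBASC2, at 63.6, 68.3 and 62.2 CPM, Birc3 fell by 9.90% (−0.15 ± 0.04, adjusted p 0.0387). That call was lost with upper-quartile factors (0.114), with no filter on low counts (0.0745) and in a fit of these groups alone (0.0929). It was also lost without control replicate 1 (0.0575), 2 (0.150) or 3 (0.149) or DiBASC2 replicate 1 (0.102) or 3 (0.218).

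Birc2 (ENSMUSG00000057367.12, protein-coding, 7818227 to 7837064), for cIAP1, was the least abundant of the 10 per kb of annotated exon in every group but DiBASC2, where Traf1 was lower. Its control libraries were at 10.3, 10.9 and 10.8 CPM, from 188 to 256 counts. In LPS, at 21.4, 22.6 and 18.8 CPM, it was 1.96-fold higher without overlap (log2 0.97 ± 0.09, adjusted p 2.82e-11). In the probe groups it was not called against control, and it had no overlap with control in any of them. Of all tested genes, 16.2% (Fura-2) to 34.4% (COOH SWCNT) did not overlap control in these comparisons, which share the same control libraries. (GT)6 SWCNT (8.95, 9.33 and 9.67 CPM), Fura-2 (8.54 to 9.72 CPM), Di-2-ANEPEQ (8.09 to 9.70 CPM) and AAV (8.24 to 9.34 CPM) lay below control. COOH SWCNT (11.1, 12.7 and 13.9 CPM) and DiBASC2 (11.8, 11.5 and 12.6 CPM) lay above it. The largest of these differences was −0.26 in AAV (95% interval −0.46 to −0.07, adjusted p 0.102). Without COOH SWCNT replicate 1 Birc2 was called higher in COOH SWCNT (log2 0.32, adjusted p 0.0229; 0.23 and adjusted p 0.0784 with all libraries).

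Cflar (ENSMUSG00000026031.15, protein-coding, chromosome 1, 58711508 to 58758884) was at 80.2, 74.0 and 77.5 CPM in control. It was at 278, 259.6 and 269 CPM in LPS, at 125, 125 and 122 CPM in (GT)6 SWCNT and at 102, 101 and 101 CPM in COOH SWCNT. As with Tnf and Traf1, these 4 groups were separated in that order. Cflar rose 3.48-fold in LPS (log2 1.80 ± 0.04, adjusted p 1.51e-30), 1.60-fold in (GT)6 SWCNT (0.68 ± 0.04, adjusted p 1.66e-16) and 1.31-fold in COOH SWCNT (0.39 ± 0.04, adjusted p 1.37e-09). In DiBASC2, at 58.1, 60.0 and 58.9 CPM, all libraries lay below every other library. Cflar fell there by 23.5% (−0.39 ± 0.04, adjusted p 2.73e-08).

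**Figure D2:**
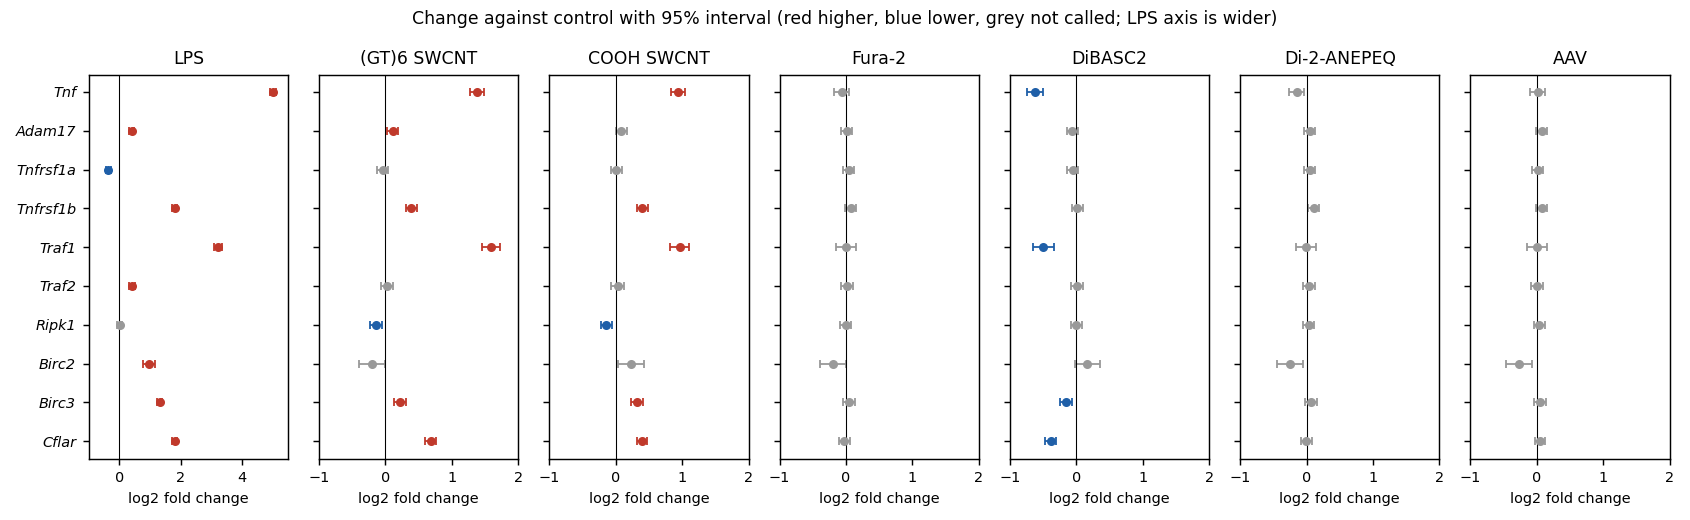
Log2 fold change of each gene against control with its 95% interval in the 7 treatments; red marks a call higher, blue a call lower and grey no call, and the LPS axis is wider. LPS shifts 8 genes up, the nanotubes shift Tnf and Traf1 most, and DiBASC2 shifts Tnf, Traf1, Birc3 and Cflar down.

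The pattern of Tnf, Traf1, Birc3 and Cflar, higher in LPS and both nanotube groups and lower in DiBASC2, was shared by 4 of 10 members and by 183 of 13116 tested genes, 1.40%. All these comparisons share the control libraries, and for Birc3 the fall in DiBASC2 is the call that was lost in the settings given above. The pattern was read from the members' own calls, so 4 of 10 beside 1.40% is a description and not a test. Tnfrsf1b rose in the same 3 groups without a fall in DiBASC2.

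Per kb of exon, counting all annotated exons of a gene, the order of the members changed with treatment. In control Tnfrsf1a was highest by this measure at 42.1 ± 0.303 CPM per kb of exon (SD, n = 3). Adam17 (39.1 ± 0.835), Tnfrsf1b (32.2 ± 0.501) and Tnf (21.7 ± 0.769) followed. Cflar (6.10 ± 0.246), Traf1 (2.69 ± 0.0806) and Birc2 (2.33 ± 0.0654) were lowest. The order depends on the annotated exon bases, 12669 for Cflar against 1639 for Tnf, and does not rank the transcripts expressed. In CPM Adam17 led in control at a mean of 280, and Cflar (77.2) lay above Tnf (35.6). In LPS Tnf led at 698 ± 32.8 CPM per kb, ahead of Tnfrsf1b (113 ± 3.82), and Tnfrsf1a was at 32.6 ± 1.55. Tnf led with (GT)6 SWCNT too, at 56.3 ± 0.270. In COOH SWCNT Tnfrsf1b (42.5 ± 1.07), Tnfrsf1a (42.4 ± 1.86), Tnf (41.7 ± 2.17) and Adam17 (41.4 ± 0.841) lay within their spread of one another.

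Ratios within a library do not depend on its scaling. The ratio of Tnfrsf1b to Tnfrsf1a per kb was 0.770, 0.768 and 0.758 in control and 3.63, 3.31 and 3.44 in LPS. The (GT)6 SWCNT libraries had ratios of 1.07, 1.01 and 1.02, the COOH SWCNT libraries 0.988, 0.998 and 1.03. So by this measure Tnfrsf1b was the lesser in control, the greater in LPS, and near parity with nanotubes. The measure divides by all annotated exon bases, 3818 for Tnfrsf1b and 2591 for Tnfrsf1a, not by the length of the transcripts expressed. In CPM Tnfrsf1b was the greater in control too, at a mean of 123 against 109. The ratios therefore compare groups and do not rank the receptor transcripts. The ratio of Traf1 to Traf2 averaged 0.153 ± 0.00263 (SD, n = 3) in control, 1.07 ± 0.0342 in LPS, 0.295 ± 0.0307 with COOH SWCNT and 0.452 ± 0.0328 with (GT)6 SWCNT. In DiBASC2 it was 0.107 ± 0.00446, below every control library. The ratio of Birc3 to Birc2 was 6.15 ± 0.0532 in control. All libraries of (GT)6 SWCNT (8.25 ± 0.274), LPS (7.89 ± 0.922), Di-2-ANEPEQ (7.69 ± 0.406), AAV (7.65 ± 0.322) and Fura-2 (7.36 ± 0.584) lay above control, and the LPS libraries overlapped those of (GT)6 SWCNT. It was 4.95 ± 0.447 in DiBASC2, where all 3 libraries lay below control. The COOH SWCNT libraries (6.58 ± 0.660) overlapped control. With 3 against 3 libraries a two-sided exact permutation test cannot go below p = 0.1, the value reached where groups did not overlap, and over the 44 ratio comparisons computed the lowest adjusted p was 0.138.

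**Figure D3:**
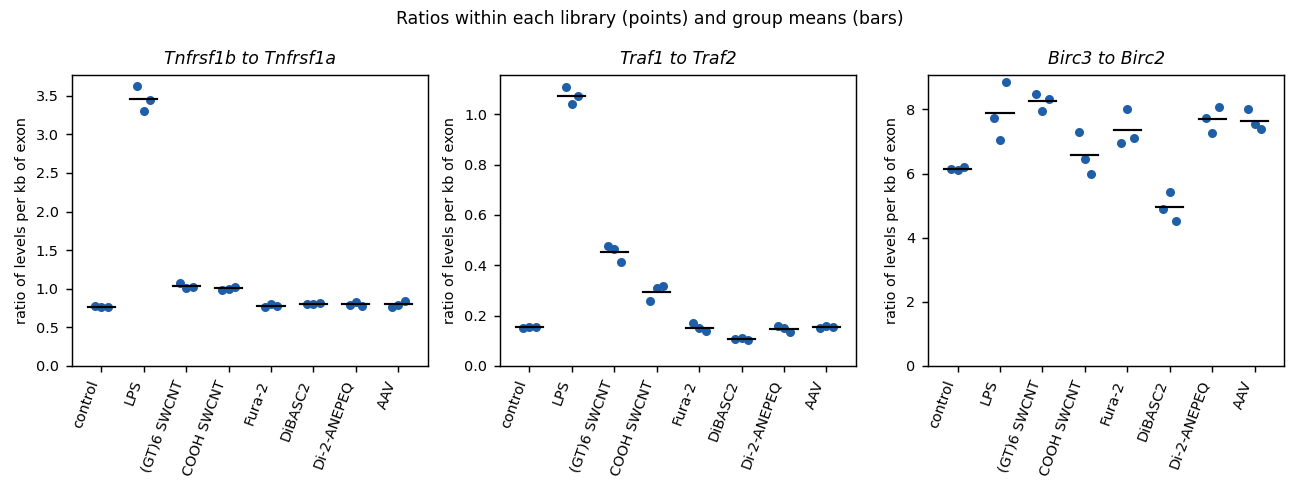
Ratio of transcript levels per kb of exon within each library for 3 pairs of related genes; points are libraries and bars group means, on linear axes from 0. The receptor and Traf ratios are highest in LPS and intermediate in the nanotube groups, and the Birc3 to Birc2 ratio is lowest in DiBASC2.

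(GT)6 SWCNT against COOH SWCNT compared the nanotube groups directly. Doses are not given, so surface and dose cannot be told apart here. Of the members 3 were higher with (GT)6 SWCNT and Birc2 was lower, where 21.4% of tested genes were called (11.9% higher, 9.48% lower). Tnf was 1.35-fold higher (log2 0.44 ± 0.05, adjusted p 1.48e-08), Traf1 1.54-fold (0.63 ± 0.06, adjusted p 1.40e-09) and Cflar 1.22-fold (0.29 ± 0.04, adjusted p 6.76e-07). Birc2 fell by 25.9% (−0.43 ± 0.09, adjusted p 0.000946), and its libraries in these groups did not overlap. Tnfrsf1b, which rose in both, was not called (log2 −0.01, 95% interval −0.09 to 0.07). For Traf2 the interval was −0.09 to 0.09 and for Ripk1 −0.08 to 0.08. Birc3 was at −0.10 (−0.19 to −0.01, adjusted p 0.106), and with upper-quartile factors it was called lower (−0.12, adjusted p 0.0490). So Cflar and Birc2 differed in opposite directions between the nanotube groups.

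Against LPS, each nanotube group had 9 members lower and Tnfrsf1a higher. The background for (GT)6 SWCNT was 21.6% called (11.9% lower, 9.63% higher) and for COOH SWCNT 37.8% (19.7% lower, 18.1% higher). Tnf fell by 91.9% from LPS to (GT)6 SWCNT and by 94.0% from LPS to COOH SWCNT (adjusted p 2.28e-37 and 9.88e-39). Tnfrsf1a was 1.25-fold higher in (GT)6 SWCNT than in LPS (adjusted p 5.46e-08) and 1.30-fold higher in COOH SWCNT (adjusted p 1.04e-09). The smallest differences were those of Ripk1, −0.15 in both (adjusted p 0.00550 and 0.00315). The Ripk1 call was lost without LPS replicate 1 for (GT)6 SWCNT (0.0722) and with upper-quartile factors for COOH SWCNT (0.0528).

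DiBASC2 against Di-2-ANEPEQ compared the voltage dyes without the control libraries. Of the members 4 were lower with DiBASC2 and Birc2 was higher, where 8.95% of tested genes were called (5.48% lower, 3.47% higher). Tnf fell by 27.7% (log2 −0.47 ± 0.06, adjusted p 4.92e-07), Traf1 fell by 28.6% (−0.49 ± 0.08, adjusted p 3.24e-05), Birc3 fell by 14.3% (−0.22 ± 0.04, adjusted p 0.000736) and Cflar fell by 23.3% (−0.38 ± 0.04, adjusted p 2.41e-08). Birc2 was 1.33-fold higher (0.41 ± 0.09, adjusted p 0.00318). The intervals of Traf2 (−0.12 to 0.07) and Ripk1 (−0.11 to 0.05) included 0. With each library's trend of counts with gene length and GC content removed, Adam17 (−0.12, adjusted p 0.0166), Tnfrsf1a (−0.15, 0.00682) and Tnfrsf1b (−0.11, 0.0453) were called lower too. Without Di-2-ANEPEQ replicate 3, Adam17 was called lower (−0.14, adjusted p 0.0466).

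**Figure D4:**
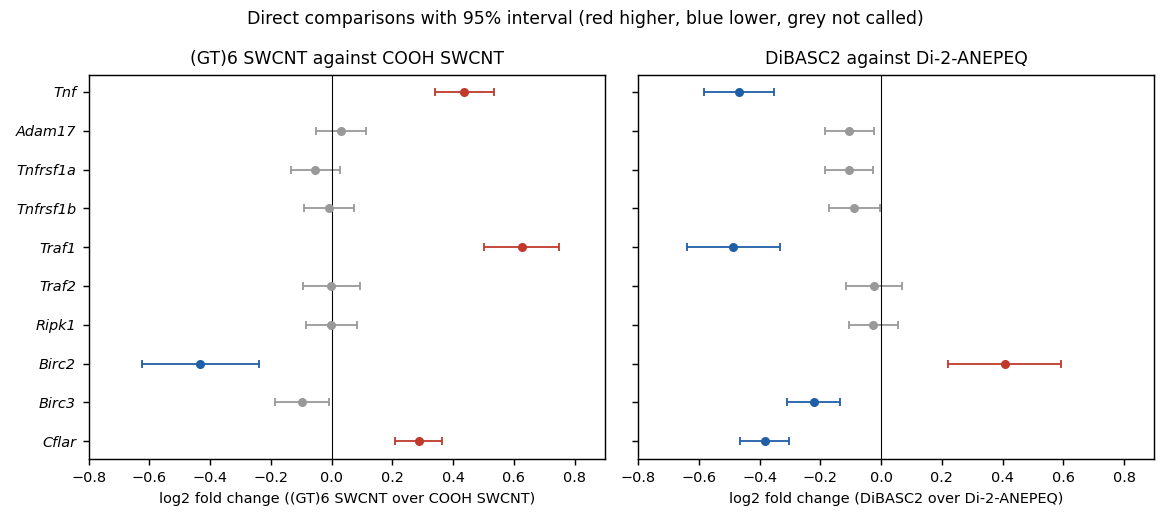
Log2 fold change of each gene with its 95% interval between the nanotube groups (left) and between the voltage dyes (right); red marks a call higher, blue a call lower and grey no call. Birc2 goes against Tnf, Traf1 and Cflar in both panels.

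Fura-2, Di-2-ANEPEQ and AAV called none of the 10 members by edgeR's test, and none by DESeq2's. The background in Fura-2 was 0.252% called (0.0381% higher, 0.213% lower), in Di-2-ANEPEQ 3.08% (0.686% higher, 2.39% lower) and in AAV 5.00% (1.84% higher, 3.16% lower). An unadjusted p under 0.05 was reached by 0 members in Fura-2, 3 in Di-2-ANEPEQ and 1 in AAV, where 10.8%, 16.5% and 20.7% of all genes passed. The 95% intervals of the members ran from −0.39 to 0.15 in Fura-2, from −0.44 to 0.19 in Di-2-ANEPEQ and from −0.46 to 0.16 in AAV, with Birc2 at the lower end of each. The largest point difference was 12.7% in Fura-2, 15.5% in Di-2-ANEPEQ and 16.6% in AAV.

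NF-kB targets that protect cells went up where Tnf, Traf1 and Cflar did. All 12 tested rose in LPS, with a median log2 fold change of 2.35. In (GT)6 SWCNT 9 rose (median 0.49) and in COOH SWCNT 7 rose (0.33), with none called lower in either, though 1 was called lower in COOH SWCNT without COOH SWCNT replicate 3, with no filter on low counts or by DESeq2. In DiBASC2 5 fell (median −0.21), and 3 without control replicate 1. The medians over all genes lay between −0.02 and −0.00 in these comparisons. Pim1, a survival kinase, rose from 38.1 CPM in control to 264 CPM in LPS (log2 2.79 ± 0.05, adjusted p 1.27e-32), to 85.8 CPM in (GT)6 SWCNT (1.18 ± 0.05) and to 66.8 CPM in COOH SWCNT (0.81 ± 0.05). Gadd45b, which restrains JNK signalling, was at 10.3 CPM in control and 20.9 CPM in (GT)6 SWCNT (1.03 ± 0.09, adjusted p 1.57e-11). Ier3, an early response gene, fell from 72.1 to 47.8 CPM in DiBASC2 (−0.59 ± 0.06, adjusted p 2.42e-08), and Nfkbia, the inhibitor of NF-kB, from 113 to 83.0 CPM (−0.44 ± 0.05, adjusted p 7.05e-08). The A1 genes Bcl2a1a, Bcl2a1b and Bcl2a1d are near-identical copies, so reads may be split between them. Bcl2a1d was at 4.55 CPM in control and 39.8 CPM in LPS (3.14 ± 0.12). In (GT)6 SWCNT against COOH SWCNT 6 of the 12 were higher and none lower, and 1 was lower without (GT)6 SWCNT replicate 2. In DiBASC2 against Di-2-ANEPEQ 6 were lower and none higher. Of all tested genes 11.9% were higher in the nanotube comparison and 5.48% were lower in that of the dyes. In AAV only Pim1 was called (0.20 ± 0.06, adjusted p 0.0305), a call lost without control replicate 2 or 3 or AAV replicate 2 or 3, and in Fura-2 and Di-2-ANEPEQ none was. The background was 5.00% called in AAV, 0.252% in Fura-2 and 3.08% in Di-2-ANEPEQ.

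**Figure D5:**
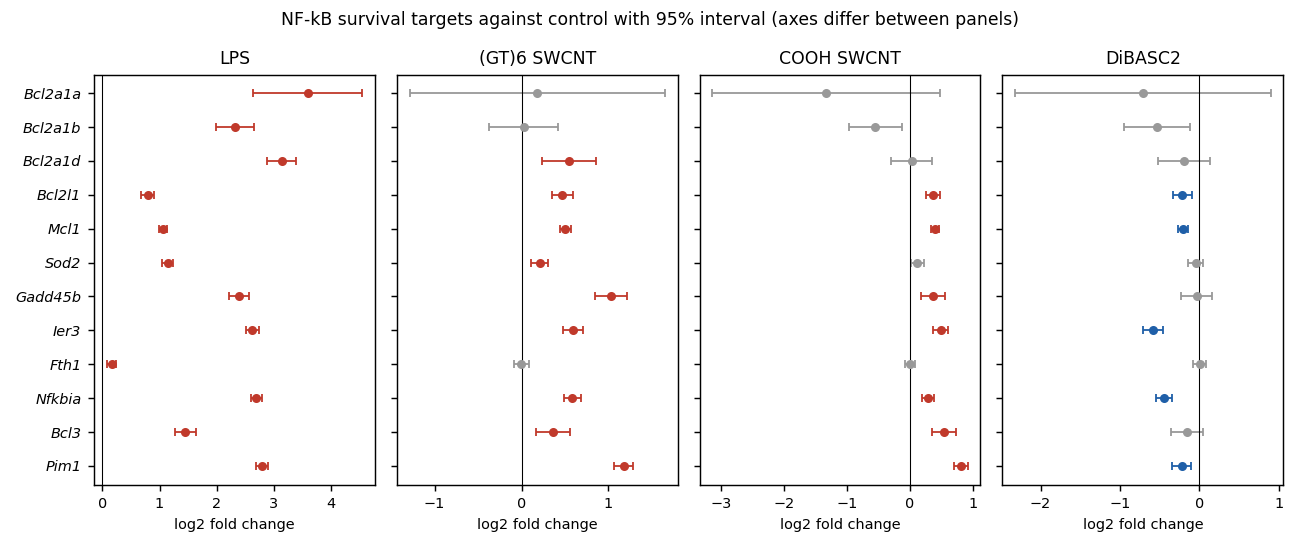
Log2 fold change against control with its 95% interval for the 12 NF-kB survival targets in 4 treatments; red marks a call higher, blue a call lower and grey no call, and the axes differ between panels. All 12 are higher in LPS, 9 with (GT)6 SWCNT and 7 with COOH SWCNT, and 5 are lower in DiBASC2. The shares of all tested genes, in the same order, are 13.8%, 9.90% and 9.39% higher and 3.64% lower.

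Of the receptor complex and its ubiquitin and kinase adaptors 21 genes were tested. In LPS 8 were higher and 3 lower (median log2 0.12, background 28.3% called), in (GT)6 SWCNT 4 and 4 (0.01, 20.4%), in COOH SWCNT 3 and 1 (0.04, 20.0%), and in DiBASC2 0 and 2 (0.01, 5.47%). With COOH SWCNT 4 of 21 is close to the background. The 4 lower in (GT)6 SWCNT became 2 without control replicate 1 or (GT)6 SWCNT replicate 2 and 1 without control replicate 2, and the 3 higher in COOH SWCNT became 5 without control replicate 3. The 2 lower in DiBASC2 became 1 without any control replicate or without DiBASC2 replicate 1 or 3. Tnfaip3, for the deubiquitinase A20 that ends NF-kB signalling, was called in all 4 of these groups. It was at 23.5 CPM in control and 216 CPM in LPS (log2 3.19 ± 0.06, adjusted p 1.92e-33). It rose to 37.6 CPM in (GT)6 SWCNT (0.68 ± 0.06) and 38.1 CPM in COOH SWCNT (0.69 ± 0.06), and fell to 18.6 CPM in DiBASC2 (−0.34 ± 0.07, adjusted p 0.000852). Map3k8, the kinase TPL2, rose in LPS (2.06 ± 0.12), as did Tnip1, a partner of A20 (1.44 ± 0.05). Tnip1 rose in COOH SWCNT too (0.34 ± 0.05), where the linear-ubiquitin protease gene Otulin fell (−0.17 ± 0.04). Traf5 rose with (GT)6 SWCNT (0.58 ± 0.16), and Map3k14, for the kinase NIK, fell (−0.39 ± 0.08).

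Of 17 listed genes of the death arm 15 were tested. In LPS 2 were higher and 4 lower, 6 of 15 against 28.3% of all genes called, with a median log2 fold change of −0.02. There were 1 higher and 2 lower in (GT)6 SWCNT (median −0.03, background 20.4%), 1 and 3 in COOH SWCNT (0.00, 20.0%), and 0 and 0 in DiBASC2 (−0.01, 5.47%). The 4 lower in LPS became 2 without LPS replicate 1 or 2. In (GT)6 SWCNT the 1 higher became 2 without control replicate 3 or (GT)6 SWCNT replicate 3, and the 2 lower became 1 without any control replicate or without (GT)6 SWCNT replicate 1 or 2. In COOH SWCNT the 3 lower became 1 without control replicate 1 or 3 or COOH SWCNT replicate 1 or 3, and the 1 higher became 2 without COOH SWCNT replicate 3. Casp9, the initiator caspase of the mitochondrial pathway, fell from 54.8 CPM in control to 35.1 CPM in LPS (log2 −0.64 ± 0.05, adjusted p 3.27e-13) and 42.3 CPM in (GT)6 SWCNT (−0.38 ± 0.05). Xiap, an inhibitor of caspases, rose in LPS (0.28 ± 0.04), (GT)6 SWCNT (0.36 ± 0.04) and COOH SWCNT (0.21 ± 0.04). It was the 1 gene of the list called higher in each nanotube group, so that count is of an inhibitor. Cycs, for cytochrome c, rose in LPS (0.26 ± 0.06) and fell in COOH SWCNT (−0.32 ± 0.06). Ripk3, the necroptosis kinase, had at most 10 counts in any library and was not tested.

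Of 9 genes around TNF shedding 7 were tested, with 2 higher and 2 lower in LPS, 2 and 1 in (GT)6 SWCNT, 2 and 0 in COOH SWCNT, and 0 and 1 in DiBASC2. The median log2 fold changes were −0.05, 0.05, 0.02 and 0.02. The background in the same order was 28.3%, 20.4%, 20.0% and 5.47% of all tested genes called. The 2 lower in LPS became 1 without control replicate 1 or LPS replicate 1. Rhbdf2, for the iRhom protein that carries ADAM17 to the surface, rose from 56.5 CPM in control to 103 CPM in LPS (log2 0.86 ± 0.06, adjusted p 1.19e-15), 89.9 CPM in (GT)6 SWCNT (0.68 ± 0.06) and 73.6 CPM in COOH SWCNT (0.38 ± 0.06). Furin, for the protease that matures ADAM17, rose from 71.3 CPM to 131 CPM in LPS (0.88 ± 0.05), 122 CPM in (GT)6 SWCNT (0.78 ± 0.05) and 111 CPM in COOH SWCNT (0.64 ± 0.05). So these partners rose more than Adam17 itself did, by point estimate. In DiBASC2 Rhbdf2 fell to 46.7 CPM (−0.27 ± 0.06, adjusted p 0.00253), a call lost without control replicate 1 (0.0651). Pacs2, a sorting protein for ADAM17, fell in LPS (−0.31 ± 0.05) and (GT)6 SWCNT (−0.23 ± 0.05).

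Genes that act on the stability or translation of the Tnf transcript, which include both destabilisers and stabilisers, went both ways. Of 13 tested, 7 were higher and 2 lower in LPS (median log2 0.14, background 28.3% called), 6 and 3 in (GT)6 SWCNT (0.11, 20.4%), 7 and 2 in COOH SWCNT (0.15, 20.0%), and 1 and 1 in DiBASC2 (−0.07, 5.47%). The 7 higher in COOH SWCNT became 4 without control replicate 1 and 3 without COOH SWCNT replicate 1 or 2, and the 2 lower became 1 without any control replicate or without COOH SWCNT replicate 2 or 3. The 1 higher in DiBASC2 became 0 without control replicate 1 or 3 or DiBASC2 replicate 1 or 3. Zfp36, for tristetraprolin, which binds AU-rich Tnf transcripts and speeds their decay, was at 56.9 CPM in control. It was at 260.3 CPM in LPS (log2 2.19 ± 0.06, adjusted p 4.64e-27), 151 CPM in (GT)6 SWCNT (1.40 ± 0.06, adjusted p 3.06e-20), 122 CPM in COOH SWCNT (1.09 ± 0.06, adjusted p 3.80e-16) and 43.8 CPM in DiBASC2 (−0.38 ± 0.07, adjusted p 0.000197). Zfp36 was also higher in (GT)6 SWCNT than in COOH SWCNT (0.32 ± 0.06, adjusted p 8.45e-05). Zc3h12a, for the RNase Regnase-1, was at 5.42 CPM in control and 92.1 CPM in LPS (4.08 ± 0.08), but at only 7.23 CPM in (GT)6 SWCNT (0.41 ± 0.11) and 7.45 CPM in COOH SWCNT (0.46 ± 0.11). Zfp36l2, a relative of Zfp36, fell in LPS (−0.85 ± 0.06) and (GT)6 SWCNT (−0.54 ± 0.05).

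Among 17 other ligands of the superfamily 9 were tested, with 4 higher and 2 lower in LPS, 2 and 1 in (GT)6 SWCNT, 1 and 1 in COOH SWCNT, and 0 and 0 in DiBASC2. The median log2 fold changes were −0.19, 0.15, 0.06 and −0.20. The background in the same order was 28.3%, 20.4%, 20.0% and 5.47% of all tested genes called, and the ligands in COOH SWCNT were close to it. The 2 lower in LPS became 0 without control replicate 1 or LPS replicate 1, and 1 without control replicate 2 or 3 or LPS replicate 2. The 1 lower in (GT)6 SWCNT became 0 without control replicate 1 or (GT)6 SWCNT replicate 2. Tnfsf9, for the 4-1BB ligand, rose from 19.3 CPM in control to 146 CPM in LPS (log2 2.91 ± 0.06, adjusted p 1.09e-30), 30.5 CPM in (GT)6 SWCNT (0.66 ± 0.07) and 26.4 CPM in COOH SWCNT (0.44 ± 0.07). Ltb, for lymphotoxin beta, lies 3060 bases from Tnf on the opposite strand and rose from 0.713 to 2.29 CPM in LPS (1.65 ± 0.27, adjusted p 7.73e-06). Lta, for lymphotoxin alpha, lies 1157 bases from Tnf, and is named after its values were seen because of that place. No control library held more than 3 Lta counts, and in LPS it averaged 1.23 CPM, at least 8.15-fold higher than 3 counts per library. Of 26 other receptors 15 were tested, with 6 higher and 4 lower in LPS, 4 and 2 in (GT)6 SWCNT, 3 and 0 in COOH SWCNT, and 0 and 4 in DiBASC2, and medians of −0.08, −0.02, 0.06 and −0.05. The background is that given for the ligands, and with COOH SWCNT 3 of 15 is at the background. The 4 lower in LPS became 2 without control replicate 1, and the 2 lower in (GT)6 SWCNT became 1 without any control replicate or without (GT)6 SWCNT replicate 2. In COOH SWCNT 1 was lower without COOH SWCNT replicate 3. Cd40, a costimulatory receptor, rose from 13.5 CPM to 93.7 CPM in LPS (2.79 ± 0.08, adjusted p 1.80e-26), 19.98 CPM in (GT)6 SWCNT (0.57 ± 0.09) and 17.1 CPM in COOH SWCNT (0.34 ± 0.09). Fas, a death receptor, rose from 8.34 to 24.6 CPM in LPS (1.56 ± 0.11) and fell to 5.31 CPM in DiBASC2 (−0.65 ± 0.13, adjusted p 0.000821). Tnfrsf12a, the TWEAK receptor, rose in (GT)6 SWCNT (0.78 ± 0.08) and fell in DiBASC2 (−0.36 ± 0.09), and was higher in (GT)6 SWCNT than in COOH SWCNT (0.59 ± 0.08, adjusted p 4.79e-07). Tnfrsf11a, for RANK, fell in LPS (−0.69 ± 0.07) and (GT)6 SWCNT (−0.37 ± 0.07).

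The members were compared with each other and with all genes over the mean log2 CPM of the 7 groups without LPS. These are descriptions over 7 points with shared scaling. Tnf followed Traf1 (Pearson r 0.994) and Cflar (0.986) most closely, then Tnfrsf1b (0.930), Birc3 (0.897) and Adam17 (0.839), and ran against Ripk1 (−0.898). Ripk1 ran only from a mean of 88.8 CPM in COOH SWCNT to 100.6 CPM in AAV, so its value rests on small differences. Birc2 did not follow Tnf (0.00). Among 8591 genes with a mean of at least 10 CPM, the 5 most like Tnf were C5ar1 (0.998), Irak2 (0.997), Mcl1 (0.996), Ptgs2 (0.996) and Csf1 (0.996). Those most like Traf1 were Slc25a25 (0.9995), Smox (0.999), Abtb2 (0.999), Il1a (0.999) and Plk2 (0.999). Those most like Birc3 were Ncstn (0.993), Hivep1 (0.991), Nfkb2 (0.987), Tnip1 (0.984) and Plekhm3. With LPS included, r ran from 0.801 (C5ar1) to 0.997 (Ptgs2) for Tnf and from 0.931 (Smox) to 0.997 (Il1a) for Traf1. For Birc3 it ran from 0.304 (Ncstn, log2 0.03 in LPS) to 0.998 (Tnip1). Over the groups without LPS Traf2 spanned only 0.04 on the log2 scale, Tnfrsf1a 0.11 and Adam17 0.17, so their likenesses rest on small differences. The genes most like these, and those most like Cflar, Tnfrsf1b and Birc2, are not given.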

How the data were processed

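The deposited file is 1 table of raw read counts per gene for 24 libraries made by the authors. Reads were processed with STAR 2.5.4b on GRCm38.p6, per the submitters' processing notes. The counting tool, its strand setting and the gene annotation version are not given in the sources used here. Ensembl identifiers were given GENCODE M21 names (53947 matched with their version, 54809 without it, 29 unmatched).

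Counts were tested with edgeR 4.0.16 (quasi-likelihood test, TMM factors, filterByExpr, 1 fit to all 24 libraries, R 4.3.3), and p-values were adjusted by Benjamini-Hochberg over the 13116 tested genes within each of 11 comparisons. Intervals are 95% intervals. CPM used TMM library sizes. A gene at 3 counts or fewer was taken as at the floor. From each of the 7 gene lists, the text draws on the 3 called genes with the largest change and a mean of at least 1 CPM, and on the survival targets as a group. The 10 genes and the lists were chosen with earlier results of these data known. Replicate numbers did not pair libraries: the correlation of deviations averaged −0.0027 for equal numbers (−0.104 to 0.0696). Alternatives were DESeq2 1.42.0 size factors and test, upper-quartile factors, no filter, a mean of at least 50 counts, a replicate block, fits of 2 groups, a length and GC correction, and leaving out each library. The S numbers that end the library names run in consecutive blocks by group. The labels do not say what these numbers stand for, and anything tied to them cannot be told apart from group.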

Additional observations from a re-analysis of the deposited data

How the results depend on the processing

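No called log2 fold change of the 10 genes changed sign under any setting run, while some that were not called and lay near 0, such as Ripk1 in LPS, did. Over settings other than leaving out a library, 870 of 880 comparisons of a member kept their call, 6 calls were lost and 4 gained. Leaving out 1 library kept 642 of 660, with 16 lost and 2 gained. With the replicate block no member call changed. The block gave 3683 called genes in LPS, 2631 for (GT)6 SWCNT, 2548 for COOH SWCNT, 694 for DiBASC2 and 1110 in DiBASC2 against Di-2-ANEPEQ. It lost the calls of Rnf31 (DiBASC2 against Di-2-ANEPEQ, adjusted p 0.0577), Tnfrsf14 (Fura-2, 0.0581) and Tnfsf12 (LPS, 0.0602). The replicate numbers were not a pairing: 2 of 24 libraries correlated best with their own number. Leaving out 1 library gave 0 to 1 members lower in (GT)6 SWCNT and in COOH SWCNT. Called genes in Fura-2 numbered 33, but 188 with no filter, 52 with the length and GC trend removed, 86 by DESeq2, 80 in a fit of 2 groups and 0 to 106 when 1 library was left out. DiBASC2 had 717 called genes, 1260 with the length and GC trend removed and 333 to 574 without 1 library. Di-2-ANEPEQ had 404, with 814 in a fit of 2 groups and 120 to 418 without 1 library. AAV had 656, with 157 to 769 without 1 library. For (GT)6 SWCNT against COOH SWCNT, 2 members were lower with upper-quartile factors. For DiBASC2 against Di-2-ANEPEQ there were 1174 called genes, 1880 with the length and GC trend removed and 610 to 1284 without 1 library, and 7 members lower with that trend removed, against 4 to 5 without 1 library. The cause was not tested. The share of called genes that were higher moved with upper-quartile factors from 48.7% to 35.4% in LPS, from 33.3% to 54.9% in DiBASC2, from 36.7% to 26.3% in AAV, from 44.6% to 57.5% in (GT)6 SWCNT against LPS, from 47.9% to 62.5% in COOH SWCNT against LPS, from 55.6% to 44.4% in (GT)6 SWCNT against COOH SWCNT and from 38.8% to 63.4% in DiBASC2 against Di-2-ANEPEQ. With the length and GC trend removed it was 34.7% in COOH SWCNT (46.9% before), 20% in DiBASC2, 58.2% in AAV, 69.5% in (GT)6 SWCNT against COOH SWCNT and 19.4% in DiBASC2 against Di-2-ANEPEQ.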
